A study of Homo sapiens with 16 samples.

Results

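The 9 genes described here encode enzymes and are ASNS, GOT1, GOT2, GPT2, PCK2, PYCR1, ALDH18A1, GLUL and GLUD1. All but PCK2 act in making or interconverting asparagine, aspartate, glutamate, glutamine, alanine and proline, and PCK2 turns oxaloacetate into phosphoenolpyruvate. The 9 genes were chosen by name, with earlier results of these data known, and each had 1 row among the 33937 genes of the deposited count table. Because the choice was made with measured values in view, their levels and fold changes are given as a description, without p-values. RNA was sequenced from HCT116, a human colon cancer cell line, in 2 stable derivatives that carry a doxycycline-inducible hairpin RNA: SCR, with a scrambled control sequence, and NAA40-KD, with a sequence against NAA40, the N-terminal acetyltransferase of histones H4 and H2A. Both lines were grown with or without doxycycline at 1 µg/ml for 96 h, giving 4 groups of 4 libraries, named by line and treatment as NAA40-KD (+dox), NAA40-KD (-dox), SCR (+dox) or SCR (-dox). The study's methods call the 4 libraries of a group independent RNA samples, without saying whether they came from separate cultures, so the spread between them may be partly technical. The labels name 1 NAA40-KD line and do not say whether it is clonal.

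Glutamate sits at the centre of this part of metabolism. Aminotransferases move its amino group onto oxaloacetate to give aspartate or onto pyruvate to give alanine, glutamate dehydrogenase releases the group as ammonia, and glutamine synthetase adds another. Aspartate supplies asparagine and nucleotide synthesis, and the carbon skeleton of glutamate is the starting point of proline. In proliferating cells several of these genes, ASNS among them, are known targets of the amino acid response, in which the transcription factor ATF4 acts at composite C/EBP-ATF elements when amino acids run short.

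A short promoter search is shown first because it gives the sequence that is the textbook site of this response in ASNS. The letters TGATGNAA, the core of the C/EBP-ATF composite element, were searched on both strands of RefSeq promoters (GRCh38.p14, 250 bases before to 50 after each start). The table held promoters of 7 of the 9 members, and GPT2 and PYCR1 were not matched. The letters were found in 2 of the 7 members, ASNS and GOT1, and in 4.46% of the 27305 genes with a promoter in the table. By promoter, 2 of the 9 listed for members held them, against 3.62% of all 35116 of the same length. The ASNS site was known before the search, so nothing is read from these counts beside the shares. Each window is read along the gene's own strand, with the match in capitals. The ASNS window is chr7:97872458-97872487 on the minus strand, and the match begins at position -68 from the start. The GOT1 window is chr10:99430804-99430833 on the minus strand, and its match begins at position -198 and reads as the motif on the opposite strand.
ASNS: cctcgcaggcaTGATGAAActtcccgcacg
GOT1: aattgcattggTTGCATCAttctcggcagc
Both windows overlap an annotated exon in GENCODE 29, and the other ASNS promoter listed held no match. A match is a description of these letters only, and binding was not measured.

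NAA40 itself gives a check of the labels. Levels here are CPM, each count divided by the size of its library as scaled by TMM over all 16 libraries. NAA40 was at 9.32 to 13.4 CPM under the label NAA40-KD (-dox), while NAA40-KD (+dox) had 28.7 to 31.8, SCR (-dox) 25.9 to 34.7 and SCR (+dox) 26.2 to 28.3. The low libraries are therefore those labelled as untreated, which goes against a hairpin that doxycycline induces, so every direction below refers to the libraries labelled with that treatment. In the count table the untreated groups have column names ending in wDox and the treated ones in Dox, and wDox could be read as with or as without doxycycline. If it meant with, the -dox and +dox names would be exchanged throughout, and these data do not settle which reading holds. The NAA40-KD (-dox) mean was 39.4% of SCR (-dox) and the NAA40-KD (+dox) mean was 111% of SCR (+dox), with an exact two-sided permutation p of 0.0286 in each case, the smallest that 4 against 4 allows. The second p became 0.0571 with library-size or upper-quartile scaling.

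Totals ran from 11065606 to 13855486 counts per library, and members had between 80 and 5021 counts. NAA40-KD (-dox) replicate 4 stood apart: its root mean square distance from the rest of its group over all genes was 0.878 on the log2 scale, against 0.189 to 0.37 for the other 15 libraries. It was kept, and member results that rest on it are also given without it. Of 6 colorectal epithelial markers, 5 averaged over 1 CPM, and VIL1 did not. Leukocyte markers reached at most 0.284 CPM. The epithelial list summed to 3801 to 4851 CPM in SCR (-dox), 4303 to 5506 in SCR (+dox), 5082 to 10697 in NAA40-KD (-dox) and 4071 to 4375 in NAA40-KD (+dox). Of 4 fibroblast markers COL1A1 alone averaged over 1 CPM, at 57.7 to 189, with COL1A2 and DCN at most at 1 count, and of 3 endothelial markers VWF did, at 0.496 to 2.71. In NAA40-KD (-dox) the upper ends, 10697 for the epithelial list and 189 for COL1A1, were in replicate 4, the library that stood apart. The part of these shifts in the results below was not tested. In bulk RNA, fewer cells with a transcript and less of it per cell cannot be told apart.

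ASNS, which makes asparagine from aspartate with glutamine as the nitrogen donor, had 13.7, 25.6, 23.6 and 15.2 CPM in the SCR (-dox) libraries and 19.5, 26.0, 17.5 and 26.5 in SCR (+dox). NAA40-KD (-dox) libraries had 12.5, 12.7, 9.84 and 17.5 CPM, and NAA40-KD (+dox) libraries 7.31, 7.48, 8.57 and 8.72. The NAA40-KD (+dox) libraries lay below all other 12, while NAA40-KD (-dox) overlapped SCR (-dox) through its replicate 4. In the +dox comparison of NAA40-KD with SCR the log2 fold change was -1.48 (SE 0.148, 4 libraries a group), a mean at 35.9% of SCR. In the -dox comparison it was -0.53 (SE 0.266), or -0.73 (SE 0.211) without replicate 4 of NAA40-KD.

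GOT1, the cytosolic aspartate aminotransferase, had 205, 339.9, 266 and 212 CPM in SCR (-dox) and 307, 313, 374 and 346 in SCR (+dox). Both NAA40-KD groups lay well below this, at 127, 112, 144 and 141 CPM without and 119, 130.1, 133 and 129 with the doxycycline label. No NAA40-KD library overlapped a SCR library. The log2 fold change was -1.40 (SE 0.0892) in the +dox comparison and -0.93 (SE 0.193) in the -dox comparison. The NAA40-KD means were nearly equal, 131 ± 14.9 without and 128 ± 6.24 CPM with the doxycycline label (SD, n = 4). NAA40 was at 11.7 ± 1.75 and 30.3 ± 1.57 CPM in the same groups, and a relation between the 2 genes was not tested.

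GOT2, the mitochondrial aspartate aminotransferase, had a different pattern from its cytosolic partner. It had 147, 143, 128 and 181 CPM in SCR (-dox) and 122, 122, 137 and 116 in NAA40-KD (-dox), groups that overlapped. In SCR (+dox) it had 139, 126, 142 and 143 CPM and in NAA40-KD (+dox) 149, 150.3, 157 and 157, where every NAA40-KD library was above every SCR library. The log2 fold changes were -0.24 (SE 0.149) and 0.15 (SE 0.0811), and neither passed an adjusted p of 0.05.

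GPT2, the mitochondrial alanine aminotransferase, was at 57.2, 80.0, 70.3 and 64.4 CPM in SCR (-dox) and 75.3, 73.4, 80.4 and 93.0 in SCR (+dox). NAA40-KD (-dox) libraries had 41.6, 43.7, 44.2 and 69.6 CPM, and NAA40-KD (+dox) libraries 51.2, 47.6, 60.1 and 60.7. In the +dox comparison the NAA40-KD libraries were all lower, and the log2 fold change was -0.56 (SE 0.107). In the -dox comparison it was -0.41 (SE 0.215) with replicate 4 inside the SCR range, and -0.65 (SE 0.108) without that library.

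PCK2, the mitochondrial phosphoenolpyruvate carboxykinase, which turns oxaloacetate into phosphoenolpyruvate, had the lowest log2 fold change of the 9 genes in both comparisons of the lines. It had 67.1, 141, 98.2 and 77.6 CPM in SCR (-dox) and 127, 121, 147 and 151 in SCR (+dox). It had 34.4, 28.3, 40.2 and 75.6 CPM in NAA40-KD (-dox) and 43.7, 43.0, 49.9 and 51.7 in NAA40-KD (+dox). The +dox groups did not overlap, with a log2 fold change of -1.55 (SE 0.102) and a mean at 34.4% of SCR. The -dox groups overlapped through replicate 4, and the log2 fold change was -1.06 (SE 0.349), or -1.48 (SE 0.24) without it.

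**Figure D1:**
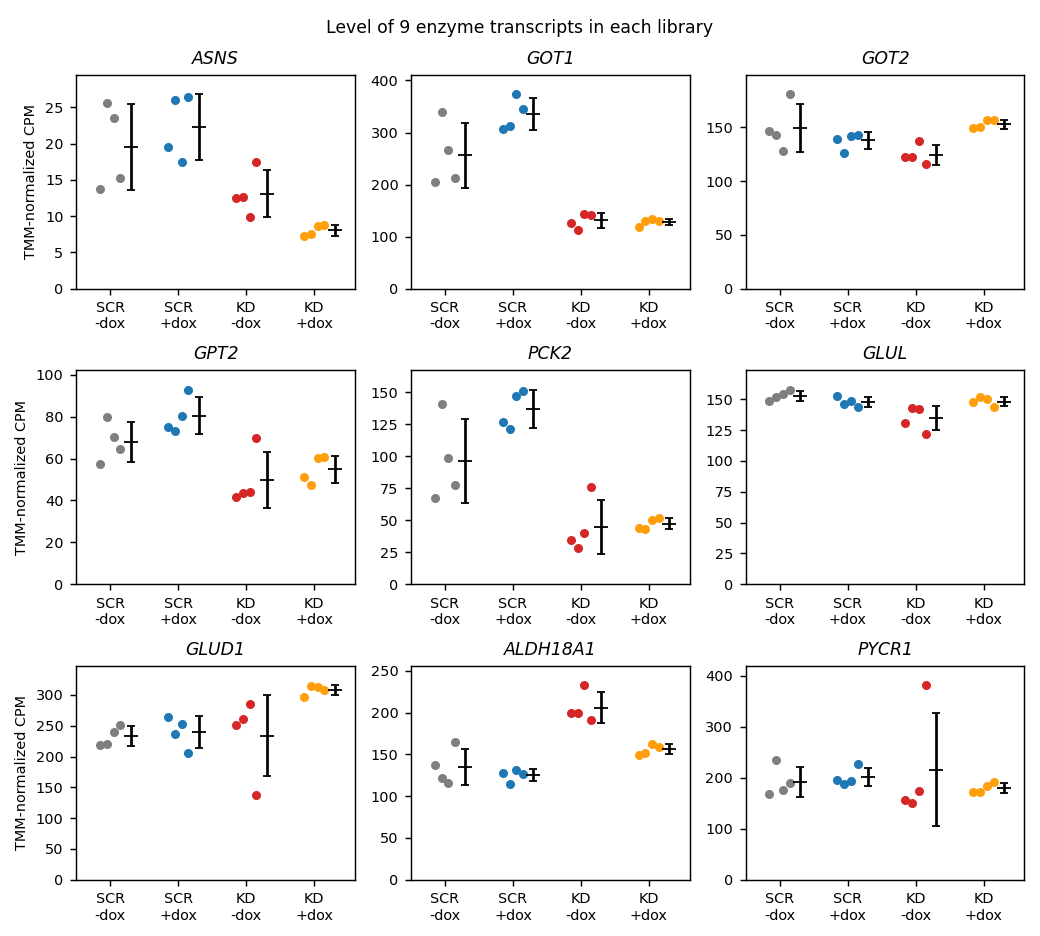
Level of each of the 9 transcripts, in TMM-normalized CPM on axes that start at 0, in the 16 libraries of 4 groups. Points are libraries in replicate order, and the bar beside them is the mean ± SD of 4; GOT1 and PCK2 are low in both NAA40-KD groups, ASNS is lowest in NAA40-KD (+dox), and NAA40-KD (-dox) replicate 4 stands away from its group for PYCR1 and GLUD1.

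GLUL and GLUD1 act on glutamate and ammonia in opposite senses. GLUL, glutamine synthetase, was the steadiest member, at 149 to 158 CPM in SCR (-dox), 144 to 153 in SCR (+dox), 122 to 143 in NAA40-KD (-dox) and 144 to 152 in NAA40-KD (+dox). Its log2 fold change was -0.16 (SE 0.125) in the -dox comparison, where the groups did not overlap, and -0.01 (SE 0.0768) in the +dox comparison. GLUD1, glutamate dehydrogenase, had 218, 221, 240 and 252 CPM in SCR (-dox), 264, 236, 253 and 205 in SCR (+dox), 252, 261, 286 and 137 in NAA40-KD (-dox) and 296, 314, 313 and 308 in NAA40-KD (+dox). The NAA40-KD (+dox) libraries were the highest of all 16, and the +dox log2 fold change was 0.35 (SE 0.086). In the -dox comparison it was 0.03 (SE 0.204), or 0.20 (SE 0.0838) without replicate 4, and replicate 4 had the lowest level of any library.

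The proline branch has its committed step in ALDH18A1, which turns glutamate into pyrroline carboxylate, and its last mitochondrial step in PYCR1, which reduces that product to proline. ALDH18A1 had 137, 122, 116 and 165 CPM in SCR (-dox) and 199, 199, 233 and 191 in NAA40-KD (-dox). It had 128, 115, 131 and 127 CPM in SCR (+dox) and 149, 152, 163 and 159 in NAA40-KD (+dox). The NAA40-KD libraries were higher in both comparisons with no overlap, at log2 fold changes of 0.64 (SE 0.154) and 0.31 (SE 0.0814). PYCR1 had 169, 234, 176 and 189.8 CPM in SCR (-dox), 195, 188, 194 and 227 in SCR (+dox), 157, 149.8, 175 and 382 in NAA40-KD (-dox) and 172, 173, 183 and 192 in NAA40-KD (+dox). Its -dox log2 fold change was 0.22 (SE 0.315) with replicate 4 and -0.25 (SE 0.107) without it, so 1 library set its sign, and the +dox value was -0.17 (SE 0.0882).

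Calls of the edgeR quasi-likelihood fit across all genes are counts beside the share of all genes tested, from which nothing is read, since the members were chosen with these data known. In the +dox comparison, ASNS, GOT1 and PCK2, 3 of 9, passed both an adjusted p of 0.05 and an absolute log2 fold change of 1, as 2.15% of 13869 genes did. Without the fold threshold 6 of 9 passed, 4 lower (ASNS, GOT1, GPT2, PCK2) and 2 higher (ALDH18A1, GLUD1), against 24.5% of all genes, 13.7% lower and 10.9% higher. All 6 passed in each of 8 fits that left out 1 library. With all 16 libraries in 1 fit, ASNS, GOT1 and PCK2 passed, 3 of 9, against 6.71% of all genes in that fit. The groups did not overlap for 7 of 9 members and for 27.1% of all genes. The median log2 fold change was -0.17 over the 9 members and 0.00 over all genes.

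In the -dox comparison none of the 9 passed both thresholds, as 3.47% of 13903 genes did, while 3 of 9 members and 3278 of all genes had an unadjusted p under 0.05, and DESeq2 called 1 member and 674 of all genes. Without the fold threshold GOT1 (lower) and ALDH18A1 (higher) passed, 2 of 9, against 6.42% of all genes, 3.54% lower and 2.88% higher. Groups did not overlap for GOT1, ALDH18A1 and GLUL, 3 of 9 members, and for 21.7% of all genes. The count of 2 changed when single libraries were left out, as did the share of all genes. It was 5 without NAA40-KD (-dox) replicate 4 (ASNS, GOT1, GPT2, PCK2 and ALDH18A1), when 36.5% of all genes passed. It was 1 without SCR (-dox) replicate 1, when 1.72% did, and 0 without any 1 of the other 6, when 1.64% to 3.18% did. With 1 library left out, GOT1 stayed between -1.03 and -0.76 and ALDH18A1 between 0.57 and 0.75. Without NAA40-KD (-dox) replicate 4, PCK2 also passed the fold threshold, as 4.27% of genes did. The median log2 fold change was -0.24 over the members and 0.04 over all genes.

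The comparisons with and without the doxycycline label used separate libraries. The sign of the fold change was the same in both for 7 of 9 members, the exceptions being GOT2 and PYCR1, and for 54.2% of 13671 genes tested in both. Of the 7, GLUL was at -0.01 in the +dox and GLUD1 at 0.03 in the -dox comparison, and both signs changed under some alternatives. PYCR1 was at -0.25 in the -dox comparison without NAA40-KD (-dox) replicate 4, the sign of its +dox value. The members were chosen with these values known, so nothing is read from the count.

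**Figure D2:**
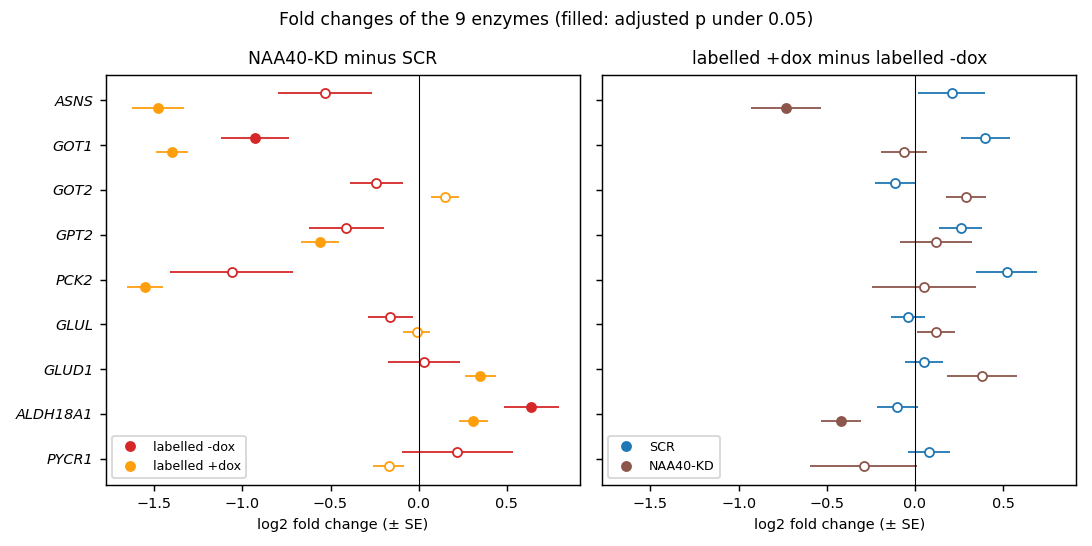
Log2 fold change ± SE of each member in 4 comparisons, with filled points where the edgeR adjusted p over all genes was under 0.05. Left, NAA40-KD minus SCR by doxycycline label; right, +dox minus -dox label within each line; ASNS, GOT1 and PCK2 lie below -1 in the +dox comparison, and no SCR point is filled.

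Within SCR, the doxycycline label was compared to measure the treatment without the NAA40 hairpin. No member passed an adjusted p of 0.05 in edgeR, as 0% of 13882 genes did, and none did with DESeq2 or limma-voom. GOT1, GPT2 and PCK2 had an unadjusted p under 0.05, with log2 fold changes of 0.40 (SE 0.141), 0.26 (SE 0.121) and 0.52 (SE 0.171), and 271 of all genes did. All 9 members overlapped between the groups, which 1.56% of genes did not. PCK2 and GOT1 thus had numerically higher levels in SCR (+dox), the reference of the +dox comparison, at 137 ± 15 against 96.0 ± 32.6 CPM for PCK2 and 335 ± 31.1 against 256 ± 62.3 for GOT1.

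Within NAA40-KD, where the level of NAA40 was 260% in the libraries labelled +dox relative to those labelled -dox, ASNS and ALDH18A1 passed an adjusted p of 0.05, both lower with the +dox label, 2 of 9 against 10.2% of 13844 genes, 5.5% lower and 4.71% higher. ASNS had a log2 fold change of -0.73 (SE 0.2) and ALDH18A1 of -0.42 (SE 0.114). GOT1 had a log2 fold change of -0.06 (SE 0.13), and -0.01 (SE 0.0668) without NAA40-KD (-dox) replicate 4. PCK2 had 0.05 (SE 0.295), and 0.45 (SE 0.0983) without that library. Groups did not overlap for 5 members, ASNS and ALDH18A1 lower and GOT2, GLUL and GLUD1 higher, and for 29.7% of all genes, 13.6% lower and 16.1% higher. Without NAA40-KD (-dox) replicate 4 the count was 7 of 9, with ASNS (-0.55, SE 0.128) and ALDH18A1 (-0.44, SE 0.0555) lower and GOT2, GPT2, PCK2, PYCR1 and GLUD1 higher, and then 52.4% of all genes passed. It was 1 without NAA40-KD (-dox) replicate 3, when 6.66% of all genes passed. It was 0 without any 1 of the other 6 libraries, when 2.77% to 5.87% did. None passed the fold threshold, as 3.99% of genes did with all libraries and 3.68% without NAA40-KD (-dox) replicate 4.

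The difference between lines in the effect of the doxycycline label was tested as an interaction over all 16 libraries. No member passed an adjusted p of 0.05 in edgeR, as 9.22% of 14392 genes did and 4.49% with the fold threshold. ASNS, GOT1 and GOT2 had an unadjusted p under 0.05, as 3595 of all genes did, and ASNS passed an adjusted p in DESeq2. The interaction was -0.94 (SE 0.316) on the log2 scale for ASNS, -0.46 (SE 0.21) for GOT1 and 0.39 (SE 0.155) for GOT2. Without NAA40-KD (-dox) replicate 4, ASNS (-0.76, SE 0.269) and GOT2 (0.37, SE 0.13) passed, when 24.2% of genes did. ASNS and GOT1 passed without SCR (-dox) replicate 2, when 8.71% of genes did. ASNS alone passed without NAA40-KD (-dox) replicate 3, when 9.13% did.

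**Figure D3:**
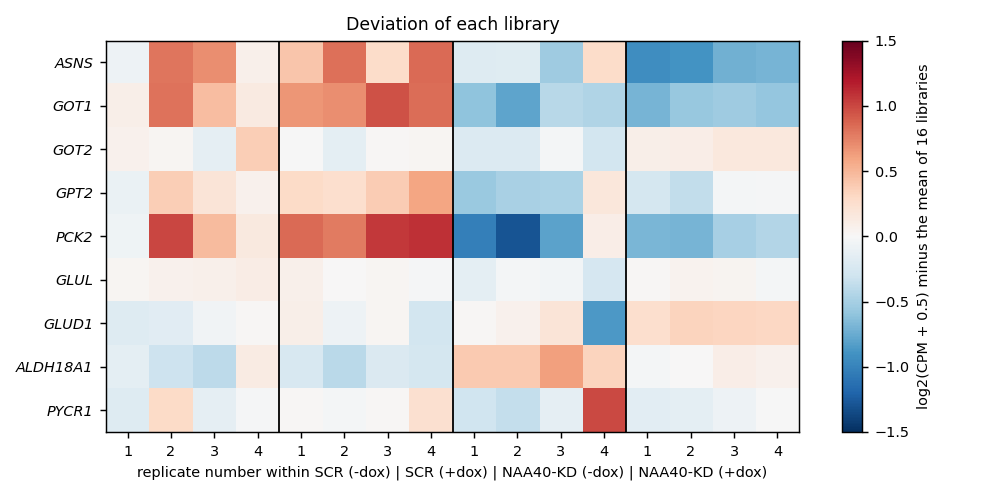
Deviation of each library from the mean of all 16, in log2(CPM + 0.5), for each member, with replicates 1 to 4 within each group from left to right and vertical lines between groups. Red is above and blue below the mean; ASNS, GOT1 and PCK2 are blue in NAA40-KD (+dox), and NAA40-KD (-dox) replicate 4 differs from its group for PYCR1, GLUD1 and PCK2.

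Levels can be compared between genes only per length, here as CPM per kilobase of annotated exon. In SCR (-dox) GOT1 led at 75.9 ± 18.5 CPM per kb (SD, n = 4), followed by PYCR1 at 66.5, GLUD1 at 66.1, GOT2 at 39.8, ALDH18A1 at 35.8, PCK2 at 22.9, GLUL at 17.0, GPT2 at 10.7 and ASNS at 4.38. The ranges of GOT1, PYCR1 and GLUD1 overlapped from each to the next, as did those of GOT2, ALDH18A1, PCK2 and GLUL, while GLUD1 was above GOT2, GLUL above GPT2 and GPT2 above ASNS in every library. In NAA40-KD (+dox) the order was led by GLUD1 at 87.5 ± 2.29 CPM per kb, GOT1 came after PYCR1, ALDH18A1 and GOT2 at 37.9, and PCK2 was below GLUL, at 11.2 against 16.4. In that group only ALDH18A1 and GOT2 overlapped among neighbours. ASNS was last in all 4 groups, at 1.80 CPM per kb in NAA40-KD (+dox).

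**Figure D4:**
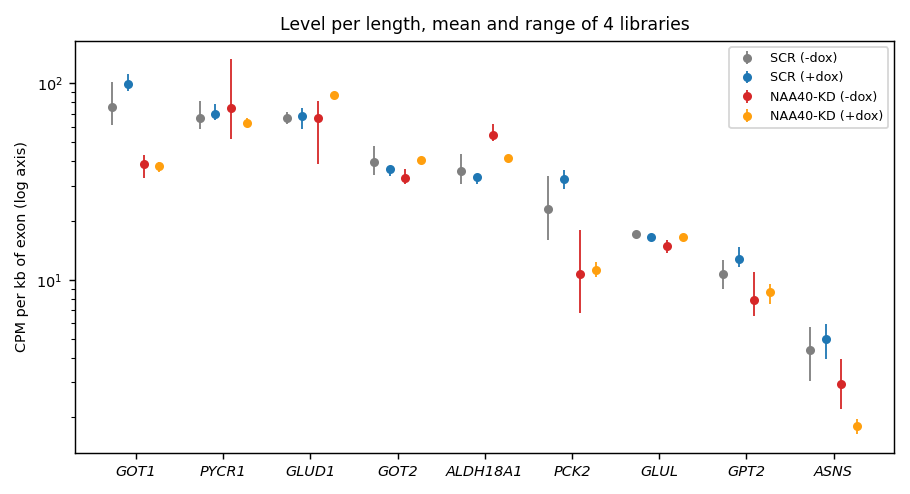
Level per length of each member, in CPM per kb of exon on a log axis, as the mean (point) and the range (line) of 4 libraries in each group, ordered by the SCR (-dox) mean. GOT1 is first in both SCR groups and below GLUD1 and PYCR1 in both NAA40-KD groups, and ASNS is last in all 4.

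Of 40 other genes of these pathways, 33 could be tested. In the +dox comparison 10 passed an adjusted p of 0.05, 7 lower and 3 higher, against 24.5% of all genes, and in the -dox comparison 2 passed, both lower, against 6.42%. Both counts were near the share of all genes. PSAT1, the phosphoserine aminotransferase of serine synthesis, which also uses glutamate, was lower in both. By edgeR its change was -1.56 on the log2 scale (SE 0.225, adjusted p = 0.00634) in the -dox and -1.19 (SE 0.0966, adjusted p = 1.16e-07) in the +dox comparison. It had 225 to 331 CPM in SCR (-dox) and 325 to 389 in SCR (+dox), against 58.0 to 121 in NAA40-KD (-dox) and 142 to 177 in NAA40-KD (+dox), with no overlap. CTPS1, a glutamine-using CTP synthase, was lower in the -dox comparison (-0.84, SE 0.153, edgeR adjusted p = 0.014) and at 0.15 (SE 0.0983, adjusted p = 0.268) in the +dox comparison.

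Among the other genes lower in the +dox comparison were the proline genes ARG2, the mitochondrial arginase (-0.85, SE 0.149, edgeR adjusted p = 0.000494), and PRODH, proline dehydrogenase (-0.75, SE 0.212, adjusted p = 0.0155). GFPT1, which passes the glutamine amide to fructose phosphate (-0.53, SE 0.108, edgeR adjusted p = 0.00179), ABAT, which degrades the transmitter GABA (-0.49, SE 0.14, adjusted p = 0.0159), ASL, argininosuccinate lyase (-0.46, SE 0.109, adjusted p = 0.00536), and MDH1, cytosolic malate dehydrogenase (-0.33, SE 0.109, adjusted p = 0.034), were lower too. None of these genes passed in the -dox comparison. There ARG2 (0.46, SE 0.236), PRODH (0.21, SE 0.298), GFPT1 (0.59, SE 0.264), ABAT (0.17, SE 0.163) and ASL (0.26, SE 0.316) had the opposite sign, and MDH1 (-0.27, SE 0.18) the same. NADSYN1, glutamine-dependent NAD synthetase, was higher (0.48, SE 0.0997, edgeR adjusted p = 0.00211), as were PPAT and ALDH5A1. The count of 10 was 6 without NAA40-KD (+dox) replicate 3, when 17% of all genes passed. The -dox count of 2 was 10 without NAA40-KD (-dox) replicate 4, when 36.5% passed. It was 1 without SCR (-dox) replicate 1 or 4 or NAA40-KD (-dox) replicate 2, when 1.64% to 2.18% passed. The paralogs GPT and PYCR3 passed in neither comparison with all libraries. PYCR3 had 5.25, 4.08, 7.34 and 15.8 CPM in NAA40-KD (-dox), against 12.3 to 18.7 in SCR (-dox). Its -dox log2 fold change was -0.92 (SE 0.395), and -1.51 to -0.69 with 1 library left out. It passed in 1 of these 8 fits. GLUD2 had at most 5 counts in a library and was not tested.

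**Figure D5:**
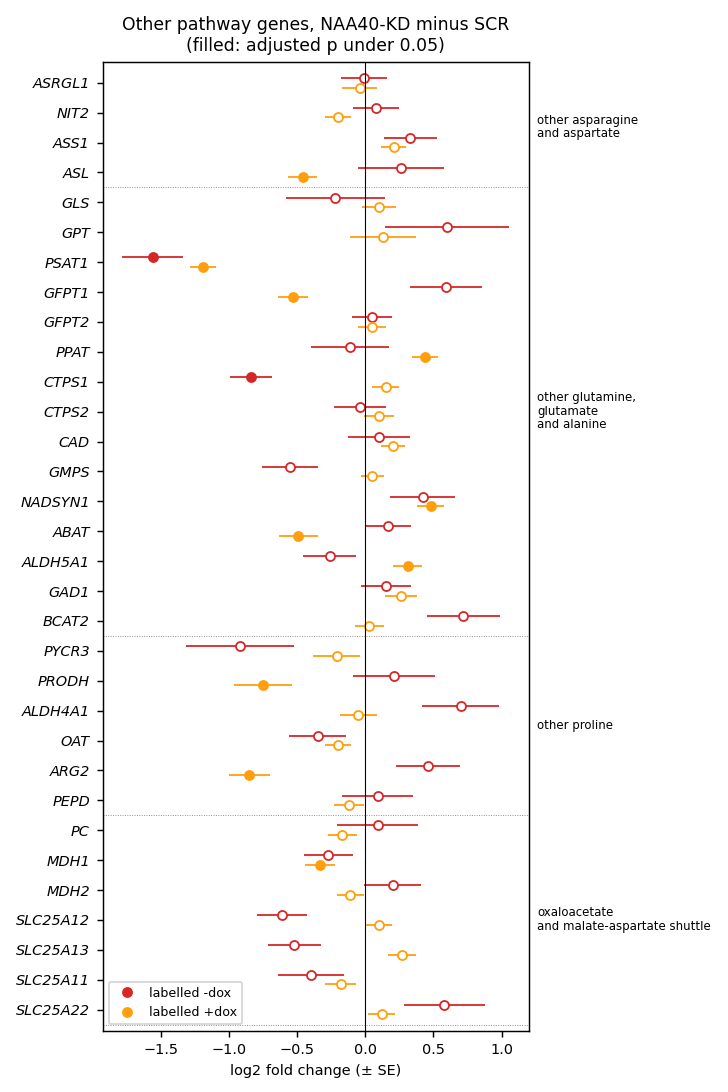
Log2 fold change ± SE of the other pathway genes tested, all but 1 of 33, NAA40-KD minus SCR, for the libraries labelled -dox (red) and +dox (orange), with filled points where the edgeR adjusted p over all genes was under 0.05. PSAT1 is filled and below -1 in both comparisons, and the remaining filled points lie between -0.85 and 0.48.

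The 9 regulators of the amino acid response that were examined included 8 that passed an adjusted p of 0.05 in the +dox comparison, 7 of them lower, and 3 that passed in the -dox comparison, where 24.5% and 6.42% of all genes passed. This list was also drawn up with earlier results of these data known. Its counts and adjusted p-values are a description from which nothing is read, and a link to the members was not tested. TRIB3, a pseudokinase induced in this response, was lower in both, at -2.11 (SE 0.116, edgeR adjusted p = 2.2e-09) with and -1.62 (SE 0.333, adjusted p = 0.0236) without the doxycycline label. DDIT3, a stress-induced C/EBP factor (-1.39, SE 0.157, edgeR adjusted p = 6.14e-06), ATF3 (-1.08, SE 0.137, adjusted p = 1.99e-05) and CEBPB (-1.05, SE 0.186, adjusted p = 0.00055) were lower in the +dox comparison. In the -dox comparison DDIT3 was at -0.73 (SE 0.212), ATF3 at 0.08 (SE 0.193) and CEBPB at -0.47 (SE 0.381), and none of them passed. ATF5 was lower in both, at -1.01 (SE 0.217, edgeR adjusted p = 0.0269) without and -0.85 (SE 0.0927, adjusted p = 4.11e-06) with the doxycycline label. EIF2AK4, the kinase that senses uncharged transfer RNA, was higher in the -dox (0.62, SE 0.148, edgeR adjusted p = 0.0387) and the +dox comparison (0.47, SE 0.0796, adjusted p = 0.00039). ATF4 itself, named after its values were seen, was lower in the +dox comparison (-0.73, SE 0.105, edgeR adjusted p = 7.68e-05), at 394 to 462 against 582 to 845 CPM. In the -dox comparison it was at -0.55 (SE 0.169, adjusted p = 0.0851), at 350.3 to 508 against 527 to 672 CPM. Of the 8 -dox fits that left out 1 library, TRIB3 and ATF5 passed in 2 each, and EIF2AK4 and ATF4 in 1 each. Over these fits TRIB3 ran from -2.02 to -1.42, ATF5 from -1.20 to -0.89, EIF2AK4 from 0.55 to 0.68 and ATF4 from -0.70 to -0.47.

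The 4 genes whose pattern over the 16 libraries was most like that of ASNS, by root mean square difference of centred log2(CPM + 0.5), were BMERB1 (0.201), NIT1 (0.214), GTPBP2 (0.215) and GRAMD1B (0.218), against a median of 0.68 over the 14391 genes ranked. Among the members GOT1 came closest, at rank 64 with a difference of 0.346, followed by GPT2 at rank 263 and PCK2 at rank 395, while ALDH18A1 and GLUD1 were at ranks 12400 and 12431. The libraries share a group structure, so this is a description of similar levels.

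Some member counts carry a limit from the annotation. In GENCODE 29 (GRCh38), ASNS (chromosome 7, 97852118 to 97872542) and PYCR1 (chromosome 17, 81932384 to 81942412) overlap a gene on their own strand, and GOT1, GOT2, PCK2 and GLUD1 overlap a gene on the opposite strand, among them NRL at PCK2 and SHLD2 at GLUD1. The strand setting of the counting was not given in the sources used here, so reads from such partners cannot be told apart. GPT2, ALDH18A1 and GLUL overlap no other gene. ASNS, GOT2, GLUL and GLUD1 have named pseudogenes with which reads could be shared.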

How the data were processed

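The authors used STAR for alignment and featureCounts for gene-level counting, and the deposited values are raw counts of 33937 human Ensembl genes in 16 libraries. The study's methods name a mouse genome, the submitters' processing notes list hg38 and GRCm38, and every gene identifier in the table was human. The methods name a stranded library kit and the labels a standard Illumina protocol. Symbols were found for 33590 genes and 33811 were in GENCODE 29.

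Members, gene lists and tests were chosen with earlier results of these data known. Named genes were the 9 members, NAA40, the member paralogs, up to 4 genes per list and comparison past an adjusted p of 0.05, and the 5 genes most like ASNS. Of these, 2 genes are not reported here.

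Each comparison was fitted on its 8 libraries with edgeR 4.0.16 (TMM, robust quasi-likelihood test, Benjamini-Hochberg over all genes tested) in R 4.3.3, keeping genes with CPM above 1 in at least 4 libraries, and the interaction on all 16. The study used limma. Each SE was derived from the log2 fold change and its F statistic, as |log2 fold change|/√F. Alternatives were DESeq2 1.42.0, limma-voom 3.58.1, other normalizations, no filter, all 16 libraries in the fit, a replicate block and each library left out. Replicate counts differed beyond sampling noise in all 24 pairs within groups (chi-square per degree of freedom 1.74 to 139.7). Totals of 11065606 to 13855486 counts set the precision, and the lowest member count was 80.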

Additional observations from a re-analysis of the deposited data

Results flagged for a closer look

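In 40 groups of 4 libraries examined, chance would give about 1 in 20 a single far value. NAA40-KD (-dox) replicate 4 was far from its group for GPT2, at 69.6 CPM, and for PYCR1, at 382 CPM. This is the library that stands apart over all genes.

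Of 29 named genes, 5 had an effect of the doxycycline label that differed between the NAA40-KD and SCR lines by the edgeR interaction test, given on the log2 scale. The interaction was 1.46 for NAA40 (adjusted p = 0.00022), 1.00 for CTPS1 (adjusted p = 0.00226), -1.30 for ARG2 (adjusted p = 0.00692), -1.15 for ATF3 (adjusted p = 0.01) and -1.12 for GFPT1 (adjusted p = 0.0303) by edgeR. None of these 5 is among the 9 enzymes.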

How the results depend on the processing

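Of 540 member fold changes under alternatives in the 4 comparisons, which leave out the interaction, 13 had the opposite sign, all of them of members that did not pass an adjusted p. Without NAA40-KD (-dox) replicate 4, PYCR1 went from 0.22 to -0.25 in the -dox comparison and from -0.29 to 0.16 within NAA40-KD, and the other 11 were of values between -0.10 and 0.05. For the interaction, leaving out that library took PYCR1 from -0.37 to 0.07 and GPT2 from -0.14 to 0.08. NAA40 in the +dox comparison was 112% (exact p = 0.0571) with library-size and with upper-quartile scaling, 109.6% to 113% with 1 library left out (exact p = 0.0571 without any 1 SCR (+dox) library), and within SCR 88.4% to 97.6%, with an exact p of 0.0286 at 88.4% without SCR (-dox) replicate 2. Genes called numbered 739 (-dox) and 504 (+dox) with no filter, 1 in SCR with no filter, 772 (-dox) with all 16 libraries in the fit, and with 1 library left out 182 to 587 (-dox) and 235 to 504 (within NAA40-KD). Genes past an adjusted p for the interaction ranged from 820 to 3467. In the -dox comparison, members called numbered 1 with DESeq2, no filter or all 16 libraries, and 0 to 1 with 1 library left out, and members past an adjusted p 1 with library-size scaling and 0 to 5. The share of all genes past an adjusted p there was 13.8% with DESeq2, 3.39% with no filter and 20.5% with all 16 libraries. It was 6.57% with library-size scaling and 1.64% to 36.5% with 1 library left out. In the +dox comparison 3 members passed with all 16 libraries, as 6.71% of all genes did. Within NAA40-KD, members past an adjusted p numbered 1 with limma-voom, library-size or upper-quartile scaling, 0 with no filter, and 0 to 7 with 1 library left out, and for the interaction 1 with DESeq2 or no filter and 0 to 2. The share of all genes within NAA40-KD was 10.8%, 10.4% and 10.3% in the first 3 of these fits. It was 3.6% with no filter and 2.77% to 52.4% with 1 library left out. For the interaction it was 13.6% with DESeq2, 2.98% with no filter and 5.71% to 24.2% with 1 library left out. Other pathway genes past an adjusted p were 8 (-dox), 2 (+dox) and 9 (within NAA40-KD) with all 16 libraries, 8 within NAA40-KD with DESeq2, and 1 to 10, 6 to 13 and 2 to 19 with 1 library left out. Within NAA40-KD 22.3% of all genes passed with all 16 libraries and 18.2% with DESeq2. In the +dox comparison 17% to 25.4% passed with 1 library left out. Nothing is read from these counts. The alternatives for NAA40 were chosen after seeing the data. The causes were not tested.

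Replicate numbers were not taken as pairs: same-numbered libraries correlated at -0.469 to 0.271 over the 4 comparisons, and no comparison had all 4 pairs over 0.1. Within NAA40-KD 3 of 4 pairs were over 0.1 and 3 libraries correlated best with their own number, as did 2 in the +dox comparison and 0 in the others. With a replicate block, 82 genes were called in the -dox comparison, no member (0) passed an adjusted p there or within NAA40-KD, where ASNS and ALDH18A1 passed without it, and 1 and 2 other pathway genes passed. In these 2 fits 0.59% and 5.61% of all genes passed an adjusted p.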
